A study of Mus musculus with 8 samples.

Results

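The interferon regulatory factors are a family of transcription factors, and 8 of their mouse genes were followed here by gene symbol, Irf1, Irf2, Irf3, Irf4, Irf5, Irf7, Irf8 and Irf9, out of 42687 genes in the count table. All 8 were found, 7 had at least 1 count in some library, and 6 were among the 15197 genes tested. The libraries are RNA-seq of a low immunogenic clone of pancreatic cancer cells. The cells came from KPCY mice, which carry Rosa26YFP/YFP and Pdx1-Cre together with KrasLSL-G12D/+ and Trp53LSL-R172H/+, while the genotype field of every library reads WT. Cells were exposed over 8 rounds of harvesting and reseeding to ATEVs at 15 µg/mL, to ATEVs at 15 µg/mL that had been pretreated with Baseline-ZERO DNase, to NTEVs at 30 µg/mL, or to PBS, with 2 libraries per group. The NTEVs are extracellular vesicles of non-activated T cells, while the labels do not spell out what the ATEVs are. The doses of ATEVs and NTEVs were each matched to 5 µg/mL of vesicle DNA, so that the vesicle doses themselves differed. All groups are 1 clone in culture, and nothing in the labels ties the 2 libraries of a group to separate cultures.

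Interferon regulatory factors bind repeats of GAAA in the interferon-stimulated response elements of promoters through a shared tryptophan-rich domain. Irf3 and Irf7 are switched on by phosphorylation when cells sense nucleic acid and drive transcription of interferons. Irf9 joins Stat2 in the complex that answers type I interferon. Irf1 is made in response to interferon gamma and turns on antigen presentation genes, and Irf2 binds the same elements and is known mainly as its antagonist. Irf4, Irf5 and Irf8 act chiefly in lymphoid and myeloid cells.

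Promoter windows of 4 members are printed because they show which interferon-linked letters stand before the genes that differed most between groups, and before Irf2, which differed least among those called. Each window runs from 250 bases before to 50 bases after a RefSeq start of the gene in GRCm38.p6 and is written in the direction of transcription. Capitals mark matches, on either strand, to 3 strings: GAAANNGAA, a core of the interferon-stimulated response element; TTCNNNGAA, a Stat site; and GGNNTTTCC, a core of an NF-kB site. The Irf1 window lies at chr11:53769764-53770063 on the plus strand, Irf2 at chr8:46739495-46739794 on the plus strand, Irf7 at chr7:141266375-141266674 on the minus strand and Irf8 at chr8:120736108-120736407 on the plus strand.
Irf1: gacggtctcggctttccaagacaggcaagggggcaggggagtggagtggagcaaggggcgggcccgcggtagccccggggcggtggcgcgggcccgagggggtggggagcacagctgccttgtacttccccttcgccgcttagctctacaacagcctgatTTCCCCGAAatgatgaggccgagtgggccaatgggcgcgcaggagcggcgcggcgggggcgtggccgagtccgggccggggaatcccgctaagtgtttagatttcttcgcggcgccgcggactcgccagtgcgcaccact
Irf2: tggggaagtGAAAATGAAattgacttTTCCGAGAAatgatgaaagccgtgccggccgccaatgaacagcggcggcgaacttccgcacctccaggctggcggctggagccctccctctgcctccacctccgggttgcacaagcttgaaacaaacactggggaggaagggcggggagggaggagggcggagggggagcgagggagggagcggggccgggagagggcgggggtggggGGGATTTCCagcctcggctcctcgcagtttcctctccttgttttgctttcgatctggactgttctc
Irf7: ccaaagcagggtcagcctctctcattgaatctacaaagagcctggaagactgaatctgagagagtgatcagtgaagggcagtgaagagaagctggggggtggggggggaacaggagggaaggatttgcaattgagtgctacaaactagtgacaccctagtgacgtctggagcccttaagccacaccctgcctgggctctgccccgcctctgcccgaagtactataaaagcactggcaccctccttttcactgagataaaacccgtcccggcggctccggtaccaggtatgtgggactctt
Irf8: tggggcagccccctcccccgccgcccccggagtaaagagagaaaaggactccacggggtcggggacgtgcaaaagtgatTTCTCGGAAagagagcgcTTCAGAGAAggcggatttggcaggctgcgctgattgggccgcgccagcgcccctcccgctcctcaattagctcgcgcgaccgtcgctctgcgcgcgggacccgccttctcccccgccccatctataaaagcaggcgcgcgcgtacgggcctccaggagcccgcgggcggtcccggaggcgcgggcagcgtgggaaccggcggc
The printed Irf1 window held 1 Stat string, TTCCCCGAA, from 90 to 82 bases before the start. The Irf2 window held all 3 strings, with GAAAATGAA at 241 to 233 bases before the start, TTCCGAGAA at 224 to 216 and GGGATTTCC at 16 to 8. The printed Irf8 window held 2 Stat strings, TTCTCGGAA at 171 to 163 bases before the start and TTCAGAGAA at 153 to 145. Irf1 and Irf8 each have another RefSeq window, at chr11:53770223-53770522 and chr8:120738389-120738688, not printed here. Those windows held none of the 3 strings. The Irf7 window held none of the 3 strings, nor did the windows of Irf4, Irf5 and Irf9, and that of Irf3 held the NF-kB string alone. Of all 32851 windows of this length in the RefSeq table, 8.56% held the response element string, 8.3% the Stat string and 5.82% the NF-kB string. No string overlapped another in these windows, the matches are matches of letters only, and a window with no match says nothing about the factors bound there.

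The libraries held 34385326 to 52451398 counts each. Levels are given in CPM, counts scaled to the size of the library with TMM factors, which compares 1 gene across libraries, and in RPKM, which is CPM per kilobase of summed exon length, where genes are compared with each other. The label of pancreatic cancer cells was met by epithelial markers in every library, since the 15 epithelial and ductal markers summed to 9241 to 12323 CPM, led by the keratin genes Krt8, Krt18 and Krt19. Not all 15 were high, and up to 2 were under 1 CPM in a library. Cldn4 and Cldn7 reached at most 2.04 and 1.12 CPM. Epcam ranged from 6.44 CPM in ATEV library 1 to 29.9 CPM in DNase-treated ATEV library 2. The 20 T cell markers summed to 6.84 to 13.1 CPM, with 9 to 12 of them at 0 in a library, and no vesicle library exceeded the higher PBS library. Of the 20 myeloid and B cell markers, 10 to 14 were at 0 in a library and nearly the whole sum was Cd14, a receptor for lipopolysaccharide. Cd14 averaged 232 ± 53.2 CPM with DNase-treated ATEVs, 158 ± 9.27 with ATEVs and 113 ± 11.6 with NTEVs, against 83.4 ± 23.1 with PBS (SD, n = 2 each), and rose with DNase-treated ATEVs against PBS at an edgeR adjusted p of 0.0284, a call lost without any 1 of those 4 libraries. Acta2, a smooth muscle and fibroblast actin gene, stood at 38.5 and 39.8 CPM with ATEVs, against 1.79 to 5.99 CPM in the other 6 libraries. Pdpn, a podoplanin gene of fibroblasts and lymphatic vessels, had 0.874 and 1.51 CPM with ATEVs and 0.253 and 0.182 CPM with PBS, at an edgeR adjusted p of 0.0496 that was lost without any 1 of those libraries, and the part of these markers in the results below was not tested. In bulk libraries such as these, fewer cells that express a gene and less of its RNA per cell cannot be told apart.

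Irf1, the interferon gamma-induced activator, reached 393 and 192 CPM in the 2 ATEV libraries, 57.2 and 58.2 CPM with DNase-treated ATEVs, 36.3 and 50.6 CPM with NTEVs, and 40.9 and 30.3 CPM with PBS. Both ATEV libraries stood above all 6 others, while the NTEV and PBS libraries overlapped. Irf7, the inducible amplifier of type I interferon production, had 45.2 and 86.3 CPM with ATEVs, 26.2 and 59.5 CPM with DNase-treated ATEVs, 11 and 28.0 CPM with NTEVs, and 5.30 and 5.68 CPM with PBS. All 6 vesicle libraries stood above both PBS libraries, and the ATEV and DNase-treated ATEV libraries overlapped. Irf9, the DNA-binding part of the complex with Stat2, had 49.4 and 54.7 CPM with ATEVs, 29.1 and 50.5 CPM with DNase-treated ATEVs, 22.1 and 34.4 CPM with NTEVs, and 16.2 and 15.8 CPM with PBS. It too was above both PBS libraries in all 6 vesicle libraries. Irf2, the antagonist, had 96.3 and 91.3 CPM with ATEVs, 54.9 and 58.7 CPM with DNase-treated ATEVs, 62.3 and 68.8 CPM with NTEVs, and 64.6 and 56.9 CPM with PBS. Only the ATEV libraries stood apart from the rest for Irf2. Irf3, the constitutively made sensor-activated factor, kept within 32.9 to 46.4 CPM over all 8 libraries, with 39.4 and 40.3 CPM for ATEVs, 46.4 and 42.6 CPM for DNase-treated ATEVs, 36.9 and 36.7 CPM for NTEVs, and 34.9 and 32.9 CPM for PBS.

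**Figure D1:**
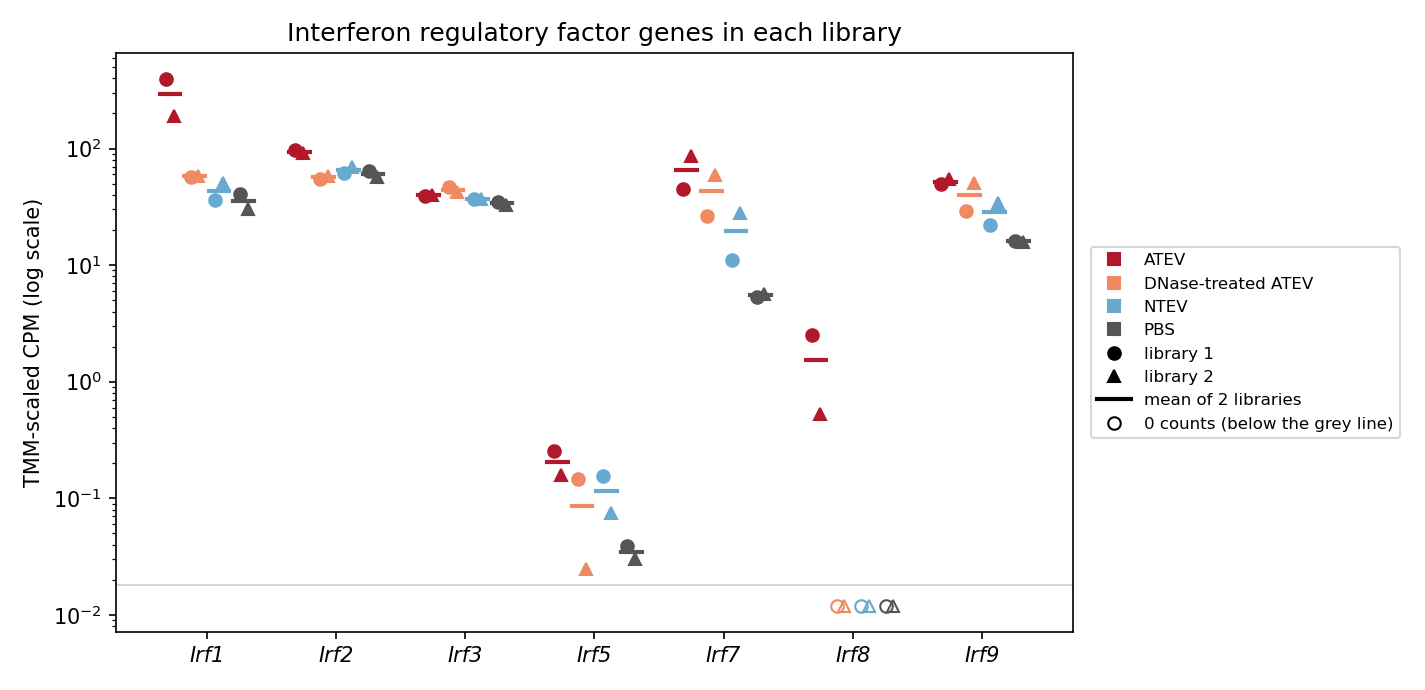
TMM-scaled CPM on a log axis for the 7 members with any count, by group, with each library as a point and a bar at the mean of 2 libraries. The ATEV points of Irf1 stand at 393 and 192 CPM above every other group, Irf7 and Irf9 are lowest with PBS, and Irf8 has points above 0 only with ATEVs; heights compare libraries within a gene, not genes with each other.

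Irf8, a factor of macrophages and dendritic cells that interferon gamma can also induce in other cells, had 110 and 23 counts with ATEVs and 0 counts in each of the other 6 libraries. These counts were 2.53 and 0.525 CPM, so that both ATEV libraries lay above a group at 0 but differed from each other several-fold. Counted against a floor of 3 counts over a group, Irf8 was at least 42.8-fold higher with ATEVs than with PBS and at least 46.4-fold higher than with NTEVs, and it was at least 41.4-fold lower with DNase-treated ATEVs than with ATEVs. ATEV library 2 alone gave bounds of 14.8-fold, 16.0-fold and 14.3-fold in these comparisons, and ATEV library 1 alone 71.1-fold, 77.0-fold and 68.7-fold. Because it entered the test only through the ATEV libraries, it had to differ there, and its edgeR adjusted p was 0.0807 for ATEVs against PBS, 0.204 for ATEVs against NTEVs and 0.225 for DNase-treated ATEVs against ATEVs. The remaining comparisons set 0 counts against 0 counts for Irf8. Spi1, the usual partner of Irf8 on DNA in myeloid cells, had 1 and 5 counts with ATEVs and 0 in the other 6 libraries. Irf5, which drives inflammatory cytokine genes in macrophages, had 11 and 7 counts with ATEVs, 6 and 1 with DNase-treated ATEVs, 8 and 3 with NTEVs, and 2 and 1 with PBS, too few to be tested. Summed over a group, that was 0.206 CPM with ATEVs (95% exact Poisson interval 0.122 to 0.326) and 0.0356 CPM with PBS (0.00733 to 0.104), where intervals cover counting error only. Irf4, a lymphocyte factor, had 0 counts in all 8 libraries, and 3 counts over the ATEV libraries would be 0.0344 CPM.

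With ATEVs, 4 of the 6 tested members rose against PBS by edgeR's quasi-likelihood test at an adjusted p under 0.05, against 3.52% of all genes called higher. Irf1 averaged 292 ± 142 CPM with ATEVs and 35.6 ± 7.48 CPM with PBS (SD, n = 2 each), an 8.20-fold difference at a log2 fold change of 3.04 ± 0.36 (SE) and an edgeR adjusted p of 0.00558. Irf7 averaged 65.8 ± 29.1 CPM with ATEVs and 5.49 ± 0.269 CPM with PBS, a log2 fold change of 3.58 ± 0.60 with an edgeR adjusted p of 0.0217. Irf9 averaged 52.0 ± 3.69 CPM with ATEVs and 16.0 ± 0.330 CPM with PBS, a log2 fold change of 1.70 ± 0.30 with an edgeR adjusted p of 0.0259. Irf1, Irf7 and Irf9 thus differed by 3.25-fold to 12.0-fold. Irf2 differed by 1.54-fold, at 93.8 ± 3.53 CPM with ATEVs and 60.7 ± 5.41 CPM with PBS and an edgeR adjusted p of 0.0412. Irf3 differed by 0.23 ± 0.13 on the log2 scale, with an edgeR adjusted p of 0.33. Leaving out Irf8, whose order was fixed by its entry into the test, all 5 other tested members had both ATEV libraries above both PBS libraries, a pattern that 25.2% of all genes shared. By p-value, Irf1 ranked 154, Irf7 355, Irf9 434 and Irf2 651 among the 15197 genes.

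These calls rest on few libraries. Every fit with a library left out also called fewer of all genes, and Irf8, named below, entered the test only through the ATEV libraries. Without PBS library 1 or PBS library 2 none of the 4 calls held, and the edgeR adjusted p of Irf1 reached 0.0814. Without ATEV library 1 the calls were Irf1 and Irf7, and without ATEV library 2 they were Irf1 and Irf8. The p-values measure the spread between libraries, which may be technical, and an exact two-sided permutation test of 2 libraries against 2 cannot go below 0.333.

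**Figure D2:**
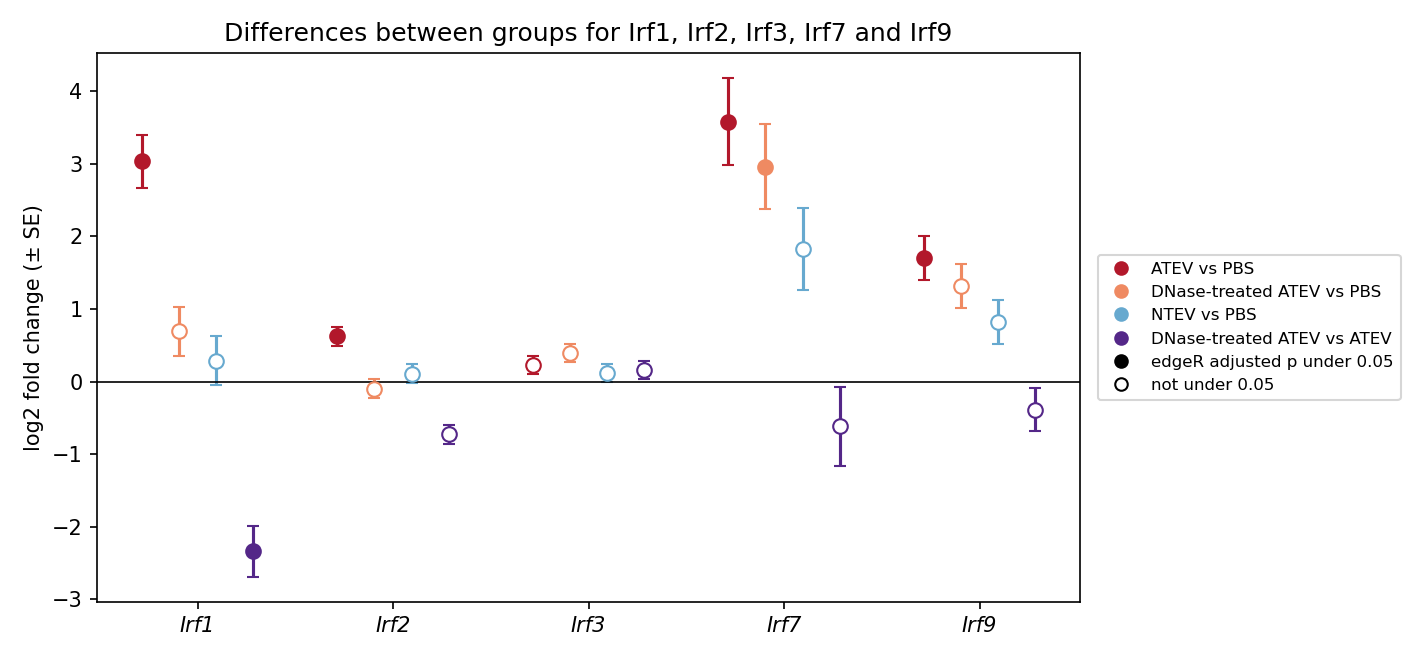
Log2 fold change with its standard error for Irf1, Irf2, Irf3, Irf7 and Irf9 in 4 comparisons, filled where the edgeR adjusted p was under 0.05. Irf1 drops to -2.34 for DNase-treated ATEVs against ATEVs, whereas Irf7 and Irf9 lie at -0.62 and -0.39 there and above 0 in all 3 comparisons with PBS.

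With DNase-treated ATEVs, edgeR called 1 of the 6 tested members higher against PBS, Irf7, with 2.16% of all genes called higher. Irf7 averaged 42.8 ± 23.5 CPM with DNase-treated ATEVs and 5.49 ± 0.269 CPM with PBS (SD, n = 2 each), a log2 fold change of 2.96 ± 0.59 at an edgeR adjusted p of 0.0497. That call was lost without any 1 of the 4 libraries compared, with adjusted p up to 0.271. Irf9 had a log2 fold change of 1.31 ± 0.30 at an edgeR adjusted p of 0.0645, Irf1 of 0.69 ± 0.34 at 0.25, and Irf3 of 0.39 ± 0.12 at 0.124. DESeq2 called 3 members, Irf3, Irf7 and Irf9, at adjusted p of 0.0409 for Irf3 and 0.00185 for Irf9. It called 1764 of all 15197 genes there in either direction. EdgeR called Irf9 too when the 2 groups were fitted alone, at 0.0475, where 668 of 14521 genes were called. With no filter it did so at 0.00139, where 1520 of 25199 genes were called. For these 4 genes both DNase-treated ATEV libraries lay above both PBS libraries, as did those of 29.7% of all genes. Irf2 overlapped PBS, at a log2 fold change of -0.10 ± 0.13 and an edgeR adjusted p of 0.656.

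Set directly against ATEVs, DNase-treated ATEVs gave less Irf1. It averaged 57.7 ± 0.710 CPM with DNase-treated ATEVs and 292 ± 142 CPM with ATEVs (SD, n = 2 each), 5.07-fold lower, with a log2 fold change of -2.34 ± 0.35 and an edgeR adjusted p of 0.0412. It was the only member called in the main edgeR fit, with 0.579% of all genes called lower. DESeq2, which called 417 of all 15197 genes there in either direction, called Irf2 as well, at 0.000169. With no filter edgeR also called Irf2, at 0.0382, and Irf8, where 343 of 25199 genes were called. The Irf1 call was lost with the 2 groups fitted alone, at an edgeR adjusted p of 0.143. The call was lost without ATEV library 1, the library with the higher Irf1, where the log2 fold change was -1.76 at an edgeR adjusted p of 0.0627, and also without either DNase-treated ATEV library. Irf2 had a log2 fold change of -0.72 ± 0.13 at an edgeR adjusted p of 0.0866, and both of its DNase-treated ATEV libraries lay below both ATEV libraries. Irf1 had that order too, as did 16.8% of all genes, and Irf8 had to. Irf7 had a log2 fold change of -0.62 ± 0.54 at an edgeR adjusted p of 0.773 and Irf9 of -0.39 ± 0.30 at 0.719, and for both the libraries of the 2 groups overlapped. Irf3 was at 0.16 ± 0.13 with an edgeR adjusted p of 0.724. Within either library number, which the titles alone share, Irf7 and Irf9 were lower with DNase-treated ATEVs. With that number as a block they had log2 fold changes of -0.656 and -0.429, at edgeR adjusted p of 0.348 and 0.446. Whether DNase treatment acted on Irf1 differently from Irf7 and Irf9 was not tested as a difference between genes.

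With NTEVs no member passed the test against PBS, where 0.704% of all genes were called higher. Irf7 averaged 19.5 ± 12.1 CPM with NTEVs and 5.49 ± 0.269 CPM with PBS (SD, n = 2 each), a log2 fold change of 1.83 ± 0.57 with an unadjusted p of 0.0142 in edgeR and an adjusted p of 0.169. Irf9 averaged 28.3 ± 8.68 CPM with NTEVs and 16.0 ± 0.330 CPM with PBS, a log2 fold change of 0.82 ± 0.30 with an unadjusted p of 0.028 and an adjusted p of 0.214 in edgeR. Irf3, Irf7 and Irf9 had both NTEV libraries above both PBS libraries, as did 28.6% of all genes. An unadjusted p under 0.05 in edgeR was met by 2 of the 6 tested members and by 2907 of all 15197 genes. DESeq2, run on the same genes, called 1 member, Irf7, and 983 of all 15197 genes in either direction. Irf1 and Irf2 overlapped PBS, with log2 fold changes of 0.29 ± 0.34 and 0.11 ± 0.13.

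Between the 2 untreated vesicle groups, ATEVs gave more Irf1 than NTEVs. Irf1 averaged 292 ± 142 CPM with ATEVs and 43.5 ± 10.1 CPM with NTEVs (SD, n = 2 each), 6.72-fold higher, with a log2 fold change of 2.75 ± 0.36 and an edgeR adjusted p of 0.0158. It was the only member called in the main edgeR fit, against 1.05% of all genes called higher. DESeq2 called Irf1, Irf2 and Irf7, and 477 of all 15197 genes in either direction. The 5 tested members other than Irf8, for which it was fixed, had both ATEV libraries above both NTEV libraries, as 13.7% of all genes did. Irf7 had a log2 fold change of 1.76 ± 0.56 at an edgeR adjusted p of 0.333, and of 0.0308 by DESeq2. With the library number, shared by title alone, as a block, Irf7 had a log2 fold change of 1.815 at an edgeR adjusted p of 0.0352. Irf9 had one of 0.88 ± 0.30 at an edgeR adjusted p of 0.392, Irf2 of 0.52 ± 0.13 at 0.181 and Irf3 of 0.11 ± 0.13 at 1. The Irf1 call was lost without either NTEV library and with the 2 groups fitted alone, with an adjusted p of up to 0.14, and the vesicle dose differed between these groups. For DNase-treated ATEVs against NTEVs no member passed the edgeR test, where 0.0526% of all genes were called in either direction. The smallest unadjusted p there was 0.0625, for Irf3, so none was under 0.05, and DESeq2 called 0 members. In that comparison Irf7 had a log2 fold change of 1.14 ± 0.55, Irf9 of 0.49 ± 0.30, Irf1 of 0.41 ± 0.34, Irf3 of 0.27 ± 0.13 and Irf2 of -0.21 ± 0.13.

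Per kilobase, the family's makeup changed with ATEVs. The summed RPKM of the 8 members was 145 and 105 with ATEVs, 47.7 and 60.1 with DNase-treated ATEVs, 35.3 and 46.5 with NTEVs, and 33.6 and 29.3 with PBS. Irf1 held on average 57.0% of that sum with ATEVs, 27.3% with DNase-treated ATEVs, 26.6% with NTEVs and 28.3% with PBS. Irf7 held 15.0% with ATEVs, 20.4% with DNase-treated ATEVs, 12.1% with NTEVs and 4.66% with PBS. Its 2 ATEV libraries were far apart, at 8.28% and 21.7%. With PBS the order by mean RPKM was Irf3 at 9.86 ± 0.417, Irf1 at 8.96 ± 1.88, Irf2 at 8.21 ± 0.731, Irf9 at 2.97 ± 0.0612 and Irf7 at 1.45 ± 0.0712 (SD, n = 2), and neighbours among the first 3 did not differ beyond their spread. With ATEVs it was Irf1 at 73.5 ± 35.7, Irf7 at 17.4 ± 7.70, Irf2 at 12.7 ± 0.478, Irf3 at 11.6 ± 0.192 and Irf9 at 9.66 ± 0.685, where Irf7 and Irf2 did not differ beyond theirs. The order of those 2 depends on the length taken: per kilobase of the longest transcript Irf2 averaged 23.7 and Irf7 20.3 with ATEVs, and the Irf7 share became 10.4% with ATEVs and 3.13% with PBS. Among 15157 tested genes with a length, the RPKM of Irf1 stood at percentile 95.9 with ATEVs and 63.8 with PBS, and that of Irf7 at 78.0 with ATEVs and 32.4 with PBS.

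**Figure D3:**
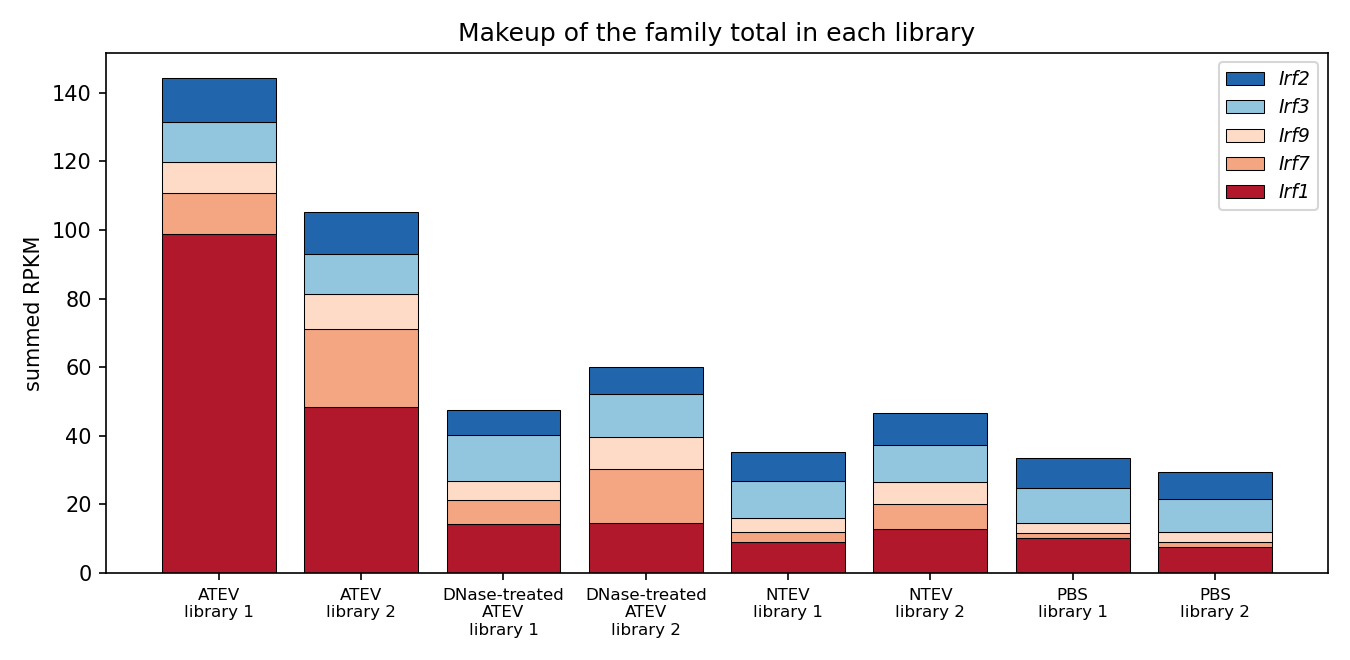
Stacked RPKM of Irf1, Irf7, Irf9, Irf3 and Irf2 in each of the 8 libraries, from an axis that starts at 0; Irf5 and Irf8 are too low to draw. The totals are 145 and 105 with ATEVs, mostly Irf1, and 29.3 to 60.1 in the other 6 libraries.

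Ratios within a library do not depend on how libraries are scaled to each other. The count of Irf1 over that of its antagonist Irf2 was 4.08 and 2.1 with ATEVs, 1.04 and 0.992 with DNase-treated ATEVs, 0.584 and 0.735 with NTEVs, and 0.634 and 0.533 with PBS. Both ATEV libraries, and next both DNase-treated ATEV libraries, stood above all NTEV and PBS libraries. The count of the inducible Irf7 over that of the constitutive Irf3 was 1.15 and 2.14 with ATEVs, 0.564 and 1.40 with DNase-treated ATEVs, 0.297 and 0.764 with NTEVs, and 0.152 and 0.173 with PBS. Here the 3 vesicle groups overlapped in a chain, and both PBS libraries lay below all of them. Within either library number, which the titles alone share, this ratio fell from ATEVs to DNase-treated ATEVs to NTEVs. Counts are not divided by length in these ratios, so that their change between libraries can be read and not their absolute size.

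**Figure D4:**
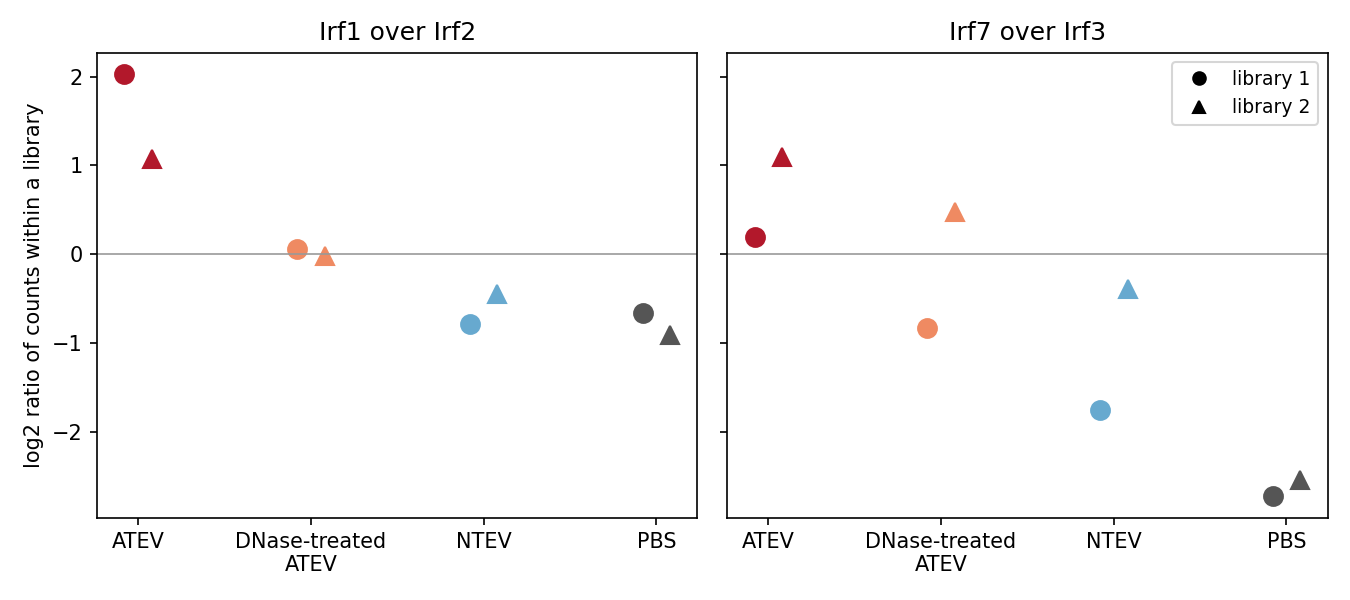
Log2 ratio of counts within each library, Irf1 over Irf2 on the left and Irf7 over Irf3 on the right, with groups along the horizontal axis. The DNase-treated ATEV points of Irf1 over Irf2 sit at 0.06 and -0.01, below the ATEV points at 2.03 and 1.07, while the Irf7 over Irf3 points of these groups interleave.

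The 2 libraries of a group differed from each other in Irf1, Irf7 and Irf9. Library 2 over library 1 in CPM was 0.489 for Irf1 with ATEVs, against 1.91 for Irf7 and 1.11 for Irf9 in the same group. With DNase-treated ATEVs that ratio was 1.02 for Irf1, 2.27 for Irf7 and 1.74 for Irf9, and with NTEVs it was 1.39, 2.56 and 1.55 in the same order. With PBS it was 0.741 for Irf1, 1.07 for Irf7 and 0.971 for Irf9. Thus the ATEV library with more Irf1 was the one with less Irf7. Of 21 genes tied to Irf1, 17 were higher in ATEV library 1, at a median log2 difference of -0.58 for library 2 minus library 1, whereas the 20 genes tied to Irf9 with Stat2 had a median of 0.20 in that group. With DNase-treated ATEVs all 20 of those genes were higher in library 2, at a median of 0.81, against 14 of the 21 genes tied to Irf1, at a median of 0.13. With NTEVs both lists were mostly higher in library 2, the Irf1 list in 16 of 21 genes at a median of 0.54 and the other in 17 of 20 at 0.89. Whether the lists differed was not tested, and the median over all 15197 genes was within 0.02 of 0 in every group.

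Genes tied to Irf1 in the literature were taken as a list of 21, among them the immunoproteasome, peptide transporter and caspase genes. With ATEVs 20 of the 21 rose against PBS, where 3.52% of all genes did, at a median log2 fold change of 3.91 against -0.02 over all genes. Without PBS library 1 or PBS library 2, 8 were called, where 0.718% and 0.649% of all genes were. The 3 with the smallest p were Psmb8 and Psmb9, catalytic subunits of the immunoproteasome, and Casp1, the inflammasome protease. Psmb8 had 316 and 195 CPM with ATEVs, 0.653 and 0.772 with DNase-treated ATEVs, 0.195 and 0.274 with NTEVs, and 0.0971 and 0.0912 with PBS, which set both ATEV libraries far above the rest. With DNase-treated ATEVs 5 of the 21 rose against PBS, where 2.16% of all genes did, at a median of 1.52. Without either PBS library none did, where 0.0693% and 0.0437% of all genes were called, and without either DNase-treated ATEV library 2 did. DESeq2 called 10 of the 21 for DNase-treated ATEVs against PBS, beside 1764 of all 15197 genes in either direction. In edgeR 12 of the 21 had an unadjusted p under 0.05 in that comparison, as did 3749 of all genes. For DNase-treated ATEVs against ATEVs, edgeR called 0.579% of all genes lower, and DESeq2 called 417 of 15197 in either direction. Of the 21, 12 fell there by edgeR, at a median of -2.35. By DESeq2 17 did, and without DNase-treated ATEV library 1 5 did, where 0.15% of all genes were called lower. With NTEVs 0 of the 21 were called against PBS by edgeR and 2 by DESeq2, which called 983 of all 15197 genes there. An unadjusted p under 0.05 in edgeR was met by 6 of the 21 and by 2907 of all 15197 genes. The median of the 21 was 0.63. For DNase-treated ATEVs against NTEVs edgeR called 0 of the 21, beside 0.0526% of all genes, at a median of 0.89. DESeq2 called 4 of the 21 in that comparison, beside 198 of all 15197 genes. In edgeR 8 of the 21 had an unadjusted p under 0.05 there, as did 1522 of all genes. Against NTEVs, 18 of the 21 rose with ATEVs, where 1.05% of all genes did, 10 without NTEV library 1, where 0.408% did, and 6 with the 2 groups fitted alone. Il15, the one member not called with ATEVs against PBS, had a log2 fold change of 0.11 and was picked out after its value was seen.

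The list of 20 genes bound by the complex of Irf9 and Stat2 is made of antiviral effectors. With ATEVs 16 of the 20 rose against PBS, beside the same 3.52% of all genes, at a median log2 fold change of 4.17, and 4 did without either PBS library. With DNase-treated ATEVs 10 of the 20 rose against PBS, beside 2.16% of all genes, at a median of 3.17. That count was 4 without DNase-treated ATEV library 1, where 0.362% of all genes were called higher, 2 without DNase-treated ATEV library 2, where 0.298% were, 0 without either PBS library, and 1 among protein-coding genes alone. DESeq2 called 15 of the 20 for DNase-treated ATEVs against PBS, beside 1764 of all 15197 genes in either direction. In edgeR 18 of the 20 had an unadjusted p under 0.05 in that comparison, as did 3749 of all genes. Oasl2, a 2'-5' oligoadenylate synthetase-like gene, had 100.1 and 100.2 CPM with ATEVs, 22.4 and 37.6 with DNase-treated ATEVs, 6.33 and 11.5 with NTEVs, and 2.29 and 1.82 with PBS, and no 2 groups overlapped. Set against ATEVs, 2 of the 20 fell with DNase-treated ATEVs by edgeR, beside 0.579% of all genes, Zbp1, a nucleic acid sensor of cell death, and Cmpk2, a mitochondrial nucleotide kinase. DESeq2 called 11 of the 20 there, and 417 of all 15197 genes in either direction. An unadjusted p under 0.05 in edgeR was met by 14 of the 20 and by 1724 of all genes, so the count depends on the tool. With NTEVs 0 of the 20 were called against PBS by edgeR and 5 by DESeq2, beside 983 of all 15197 genes by DESeq2. An unadjusted p under 0.05 in edgeR was met by 6 of the 20 and by 2907 of all genes. The median of the 20 was 0.51. For DNase-treated ATEVs against NTEVs edgeR called 0 of the 20, beside 0.0526% of all genes, at a median of 2.24. DESeq2 called 11 of the 20 in that comparison, beside 198 of all 15197 genes. In edgeR 17 of the 20 had an unadjusted p under 0.05 there, as did 1522 of all genes. Against NTEVs, 11 of the 20 rose with ATEVs, beside 1.05% of all genes, 6 without NTEV library 1, and 2 with the 2 groups fitted alone, Zbp1 and Cmpk2. A list of 11 genes that Irf3 and Irf7 can bind directly shares Zbp1, Isg15, Ifit1 and others with the antiviral list, and 7 of its 8 tested genes rose with ATEVs and 3 with DNase-treated ATEVs against PBS, with as few as 1 and 0 when a PBS library was left out. All of these lists were drawn up with earlier results of these libraries known and are no independent evidence of a direction.

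**Figure D5:**
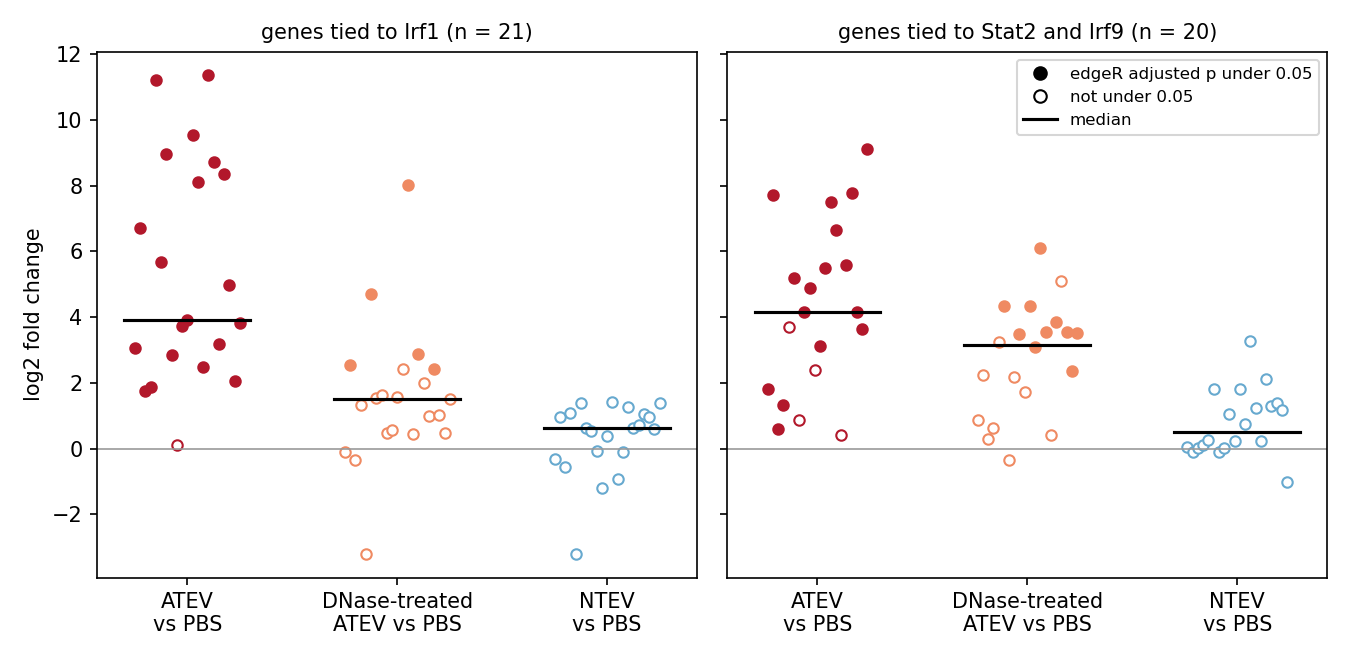
Log2 fold change against PBS for the 21 genes tied to Irf1 and the 20 genes tied to Stat2 and Irf9, 1 point a gene, filled where the edgeR adjusted p was under 0.05, with a bar at the median. The Irf1 medians are 3.91, 1.52 and 0.63 for ATEVs, DNase-treated ATEVs and NTEVs, and those of the other list are 4.17, 3.17 and 0.51.

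Of the factors that work with the family, Stat2, the partner of Irf9, had 81.5 and 89.2 CPM with ATEVs, 51.0 and 91.0 with DNase-treated ATEVs, 22.7 and 37.5 with NTEVs, and 24.7 and 21.0 with PBS. Both ATEV and both DNase-treated ATEV libraries stood above all NTEV and PBS libraries and overlapped each other. Stat2 had log2 fold changes of 1.90 with ATEVs and 1.64 with DNase-treated ATEVs against PBS, at edgeR adjusted p of 0.0236 and 0.0498, and of -0.27 for DNase-treated ATEVs against ATEVs at 0.863. In all, 4 of 9 tested Stat and feedback genes rose with ATEVs against PBS, beside 3.52% of all genes. The others were Usp18, Socs1 and Stat3, and Stat3 was named after its values were seen. Usp18 is also on the antiviral list and Socs1 on the Irf1 list, so these 2 calls are counted there too. With DNase-treated ATEVs 2 of the 9 rose, Usp18 and Stat2, beside 2.16% of all genes. None of these calls against PBS held without either PBS library. Set against ATEVs, 0 of the 9 were called with DNase-treated ATEVs by edgeR and 2 by DESeq2, beside 417 of all 15197 genes by DESeq2. An unadjusted p under 0.05 in edgeR was met by 2 of the 9 and by 1724 of all genes. Batf2, an AP-1 factor that pairs with Irf1 in macrophages, had 38.0 and 13.7 CPM with ATEVs, 1.77 and 0.946 with DNase-treated ATEVs, 1.64 and 1.42 with NTEVs, and 1.28 and 1.79 with PBS. It rose with ATEVs against PBS and fell with DNase-treated ATEVs against ATEVs, at edgeR adjusted p of 0.00946 and 0.026, calls that were lost without either PBS library and without either DNase-treated ATEV library. Batf2 and Trim21, a ubiquitin ligase, were the 2 of 12 tested partners called with ATEVs against PBS, beside 3.52% of all genes called higher. With NTEVs 1 of the 12 was called against PBS, Ep300, beside 0.704% of all genes. Ep300 had a log2 fold change of 0.67 at an edgeR adjusted p of 0.0426. That call was lost with the GC offset, with the groups fitted alone and among protein-coding genes alone. It was also lost without any 1 of the 4 libraries compared.

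Upstream of the family, lists of interferon, receptor and pathway genes were read in the same way. Of 18 interferon genes 2 had any count, Ifne and, with 1 count in a PBS library, Ifnz. Ifne, an epithelial type I interferon, was the one tested, with 22 and 18 counts with ATEVs, 16 and 19 with DNase-treated ATEVs, 13 and 8 with NTEVs, and 4 and 3 with PBS. Ifne rose with ATEVs against PBS at an edgeR adjusted p of 0.0373, a call that no fit without 1 of those 4 libraries kept. Ifng and Ifnb1 had 0 counts in all 8 libraries. Of 12 receptor, kinase and phosphatase genes 1 rose with ATEVs, Ifnar2, a chain of the type I receptor, at a log2 fold change of 0.80 and an edgeR adjusted p of 0.0456, beside 3.52% of all genes called higher. The Ifnar2 call was lost without any 1 of the 4 libraries, with adjusted p up to 0.272. Of 21 tested genes in the pathways that activate Irf3, Irf5 and Irf7, 4 rose with ATEVs against PBS, beside 3.52% of all genes. They were the RNA sensors Ddx58, Ifih1 and Dhx58 and the adaptor Tbkbp1. Without PBS library 1 all of these calls but that of Ifih1 were lost, and without PBS library 2 all were. Tbk1, the kinase of Irf3, had a log2 fold change of 0.13 and Cgas, the cytosolic DNA sensor, of 0.32, neither of them called. With DNase-treated ATEVs 2 of the 21 rose against PBS, Ddx58 and Dhx58, beside 2.16% of all genes. Both calls were lost without any 1 of the 4 libraries compared. In the 7 tested genes linked to Irf8 and Irf5, 3 rose with ATEVs against PBS, beside 3.52% of all genes. They were Cd74, the class II invariant chain, Cybb, an oxidase subunit that is also on the Irf1 list, and Fas, a death receptor. Cd74 had 401 and 483 CPM with ATEVs and at most 0.149 CPM in the other 6 libraries, and was the one of these to fall with DNase-treated ATEVs against ATEVs. Of 8 constitutive proteasome genes 0 were called with ATEVs against PBS by edgeR or DESeq2. In edgeR 1 of the 8 had an unadjusted p under 0.05, as did 3326 of all 15197 genes. All 8 had log2 fold changes below 0 there, at a median of -0.28. With NTEVs against PBS all 8 were below 0 too, at a median of -0.565. There edgeR called 0 and DESeq2 1, beside 983 of all genes by DESeq2. Of the 8, 6 had an unadjusted p under 0.05 in edgeR with NTEVs, as did 2907 of all genes.

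Profiles over the 8 libraries, each centred on its own PBS mean, were compared with 10759 genes by the root-mean-square difference in log2 CPM. Nearest to Irf1 were Ube2l6, the conjugating enzyme of Isg15, at 0.17, H2-M3, a nonclassical class I gene, at 0.25, and Parp9 at 0.35, against a median of 1.61 over all genes. Nearest to Irf7 were Dhx58 at 0.21, Ddx60 at 0.40 and Usp18 at 0.44, against a median of 2.51. Nearest to Irf9 were Traf5 at 0.16, Cd274, which encodes PD-L1, at 0.19, and Cebpb at 0.19, against 1.22. Nearest to Irf2 were Dexi at 0.09, Tnfrsf1a, the TNF receptor, at 0.09, and Nub1 at 0.10, against 0.47. The distances are a description and share the same libraries and scaling.

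Some members share exonic bases with a neighbour, and how the counting treated strand and such bases is not given in the sources used here. Rnf31 overlaps Irf9 on the same strand by 123 exonic bases, had 47.7 and 41.2 CPM with ATEVs and 23.0 and 20.5 CPM with PBS, and rose at an edgeR adjusted p of 0.0246 with a smaller log2 fold change, 1.03, than that of Irf9. Gm17334 overlaps Irf1 on the opposite strand by 135 bases and stayed at or under 1.23 CPM in every library. Tnpo3, opposite Irf5 with 411 shared bases, had 139 to 231 CPM, so that the few counts of Irf5 cannot be told apart from reads of Tnpo3. Bcl2l12 shares 88 bases with Irf3 and Phrf1 45 bases with Irf7, both on the opposite strand. Genes of higher GC content were slightly higher with every vesicle group than with PBS, with medians for ATEVs of 0.20 on the log2 scale at 55% GC or more and -0.23 under 45%, and Irf3, at 56.7% GC, had a log2 fold change of 0.01 with ATEVs against PBS once that trend was removed.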

How the data were processed

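Raw counts per Ensembl gene in 8 libraries were deposited by the authors as whole numbers with no normalization. Per the labels' protocols, the mRNA kit keeps strand. Versions named in the submitters' processing notes are TopHat2 2.0.11, bcl2fastq 2.19 and Cufflinks 2.1.1, with the mm9 build. How reads were counted, with which strand setting and annotation, is not given in the sources used here, so reads of overlapping genes may have been assigned to either.

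Groups came from the sample titles. Genes kept by filterByExpr (minimum count 10, minimum total 15) were scaled by TMM and tested with edgeR 4.0.16 in R 4.3.3, by two-sided quasi-likelihood F tests with a mean per group over all 8 libraries, Benjamini-Hochberg adjustment over 15197 genes and a threshold of 0.05. All groups then share 1 estimate of the spread, with 4 residual degrees of freedom. Standard errors are the log2 fold change divided by the square root of F. The test was checked on counts simulated with known changes and with the fit's own spread, the same in every group. Groups of unequal spread were not covered by that check. Symbols, exon lengths and GC content came from GENCODE M21, and 42250 of the gene IDs had a symbol. Sting1 was matched under its older symbol, Tmem173. RPKM was computed from the CPM and the summed exon length.

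The members and the gene lists were chosen with earlier results of these data known, and 1 gene of a list is not reported here. Text names the 6 tested members in every comparison and Irf4 and Irf5, too low to test, by their counts, up to 3 genes of a list with the smallest p among those called with ATEVs against PBS, the 3 protein-coding genes with the profile most like that of each called member (mean log2 CPM of at least 1), genes overlapping a member, and the leading markers of each cell type, and genes outside that rule were picked after their values were seen. Alternatives were DESeq2 size factors, total counts, no filter, DESeq2 1.42.0, the compared groups alone, a replicate block, a GC offset, protein-coding genes alone, each library left out, and, for RPKM, the length of the longest transcript.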

Additional observations from a re-analysis of the deposited data

How the results depend on the processing

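Of the log2 fold changes of single members over all alternatives, 376 kept their direction and their side of the threshold, 29 lost a call, 22 gained one and 2 reversed. The 2 were Irf3 for NTEVs against PBS, at 0.12, which came to -0.10 with the GC offset and with the replicate block and the GC offset together. ATEVs against PBS gave 4 members called and 3 to 5 in every alternative with all libraries, but 0 to 2 when a library was left out. DNase-treated ATEVs against PBS gave 1, and 0 with DESeq2 size factors, the GC offset, protein-coding genes alone or any library left out, 2 with no filter or the groups alone, and 3 with DESeq2. NTEVs against PBS gave 0, and 1 with no filter or DESeq2. ATEVs against NTEVs gave 1, 3 with no filter or DESeq2, 0 with the groups alone, and 0 to 1 with a library left out. DNase-treated ATEVs against ATEVs gave 1, 3 with no filter, 2 with DESeq2, 0 with the groups alone, and 0 to 1 with a library left out. DNase-treated ATEVs against NTEVs gave 0 in every setting run. The cause of these shifts was not tested, except that a fit with a library left out has a lone library in 1 group, which is assumed to vary like the other groups. Replicate numbers were shared by the titles alone. Same-numbered libraries deviated together between the vesicle groups (correlation across genes 0.485 to 0.552) and not with PBS (-0.236 to -0.141). With the replicate block 5 members were called for ATEVs against PBS, 2 for DNase-treated ATEVs against PBS, 1 for NTEVs against PBS and 2 for ATEVs against NTEVs, and with the block and the GC offset 5, 2, 0 and 2. The calls gained with the block were Irf8 (adjusted p 0.032), Irf9 (0.031), Irf7 (0.0479) and Irf7 (0.0352) in that order of comparisons. Crossing the numbers of the PBS libraries, chosen after the data were seen, gave 5, 3 and 2 members for ATEVs, DNase-treated ATEVs and NTEVs against PBS. The calls over all genes moved as well. ATEVs against PBS gave 788 genes, 1637 with DESeq2, 1454 with no filter and 370 among protein-coding genes. In the same order, DNase-treated ATEVs against PBS gave 458, 1764, 1520 and 33, and NTEVs against PBS 169, 983, 773 and 1. ATEVs against NTEVs gave 181, 477, 459 and 172, and DNase-treated ATEVs against ATEVs 101, 417, 343 and 88. The longest transcript in place of summed exons turned the order of Irf7 and Irf2 with ATEVs, as given above. With 2 libraries a group, Irf5 is limited by depth and the tested members, Irf8 included, by the spread between libraries.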
